A study of Mus musculus with 3 samples.

Results

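PRC1.6 is a variant Polycomb repressive complex, and 10 of its core subunit genes were followed here across mouse embryonic stem cell cultures: Pcgf6, L3mbtl2, Mga, Max, E2f6, Tfdp1, Rnf2, Ring1, Rybp and Yaf2. The members were taken by name from the known composition of the complex, and all probes whose RefSeq accession maps to them were used. All 10 genes were found on the array, with 11 probes among the 55681 probes and 20284 named genes in all, and all 11 probes were well above background on all 3 arrays. Yaf2 had 2 probes and the other members 1 each.

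RNA was measured on 3 1-colour arrays with 1 array in each group. The first group was Pcgf6KO cells carrying Flag-tagged Pcgf6 from a lentivirus (labelled Pcgf6KO+ Pcgf6_flag), the next was Pcgf6KO cells made with Cas9, and the last was wildtype cells. All 3 were male and grew with leukemia inhibitory factor and serum on mouse embryonic fibroblasts inactivated with mitomycin-C, so fibroblast RNA can be part of each sample. The sources used here do not say whether each edited line is 1 clone, where the edit lies in Pcgf6 or which promoter drives the tagged copy. Because each group had a single array, differences have no replicate check and no p-value.

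Polycomb repressive complexes of the first class place ubiquitin on histone H2A through the RING-type enzymes Ring1 and Rnf2. Each variant complex is defined by its Pcgf protein, and Pcgf6 marks the form that is directed to DNA by sequence-specific factors, the Mga-Max pair at E-box elements and E2f6 with its partner Tfdp1 at E2F elements. In mouse embryonic stem cells this complex is known for keeping germ cell and meiotic genes silent.

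Those DNA elements can be seen in promoters. The stretches printed here are the 250 bases before the start of transcription in GRCm38.p6, from RefSeq, 5′ to 3′ on the strand of the gene, with the E-box CACGTG and the E2F core TCCCGC (searched on both strands, with no base shared between motifs in these stretches) in capitals. E2f6 is shown because it is the DNA-binding subunit that stood higher in Pcgf6KO. Mael and Slc25a31, germline genes known as targets of the complex, are shown because they stood higher there as well and hold an E-box. They were chosen for printing after their values were seen.
E2f6 (chr12:16810715-16810964, plus strand): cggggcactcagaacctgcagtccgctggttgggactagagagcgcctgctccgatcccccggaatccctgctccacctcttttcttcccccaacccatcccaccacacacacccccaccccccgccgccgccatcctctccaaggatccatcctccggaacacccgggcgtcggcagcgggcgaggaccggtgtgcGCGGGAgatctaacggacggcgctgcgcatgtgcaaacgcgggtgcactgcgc
Mael (chr1:166238745-166238994, minus strand): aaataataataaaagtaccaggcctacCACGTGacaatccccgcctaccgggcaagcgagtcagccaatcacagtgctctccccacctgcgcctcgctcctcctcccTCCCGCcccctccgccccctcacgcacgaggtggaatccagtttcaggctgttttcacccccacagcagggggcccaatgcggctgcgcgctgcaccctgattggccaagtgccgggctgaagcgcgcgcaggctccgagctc
Slc25a31 (chr3:40708621-40708870, plus strand): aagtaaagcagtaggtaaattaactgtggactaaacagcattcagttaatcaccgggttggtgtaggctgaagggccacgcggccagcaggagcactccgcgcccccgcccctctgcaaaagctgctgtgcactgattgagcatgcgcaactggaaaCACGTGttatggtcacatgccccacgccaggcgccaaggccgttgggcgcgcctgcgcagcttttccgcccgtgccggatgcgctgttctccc

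Among the members, 8 matched a promoter in the table, of which Tfdp1 held the E-box and E2f6, Rnf2 and Tfdp1 held the E2F core. Of 17 germline targets listed for the complex, 8 held the E-box and 8 held the E2F core. The E-box was also held by Stag3 and Hormad1, the 2 targets lower in Pcgf6KO than in wildtype (-0.54 and -0.29). Tdrkh and Tex101, the highest targets there (3.87 and 2.87), held neither motif. The printed promoters thus do not stand for a link between motif and difference, which was not tested. Over all 32851 promoters of the table the shares were 6.02% for the E-box and 16.9% for the E2F core. These shares are per promoter, whereas a member or target was counted as a gene if any promoter of it held the motif. The targets were listed from knowledge of E2f6, Mga and Pcgf6 targets, so the shares among them are a description. A match of letters is not a bound site.

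Levels are given as log2 of the processed spot signal minus the 75th percentile of the array, and differences are in log2 units. A level on this scale cannot be set against the level of another gene, because probes differ in brightness. The scanner software's own error for a spot gives each difference of a member between 2 arrays an error of 0.20, with slightly more for the dimmer Yaf2 probe. Apart from that probe, this error was nearly the same share of the signal for all member probes on all 3 arrays. It therefore does not tell 1 member from another. For the members, 2 times the software error is in effect a fixed cutoff of 0.408. Repeated spots of 1 probe gave an SD of 0.10 for Pcgf6KO minus wildtype and 0.12 for both other comparisons. These errors cover the spot, not the culture or the RNA preparation.

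Pcgf6, the gene that was edited, comes first. Its probe, matched to NM_027654, had a processed signal of 6202 on the array labelled Pcgf6KO+ Pcgf6_flag, 7704 in Pcgf6KO and 14333 in wildtype. Scaled levels were 0.42, 0.84 and 1.87 on the same arrays. The transcript was thus highest in wildtype, and the array labelled Pcgf6_flag was the lowest of the 3. Pcgf6KO minus wildtype was -1.03 ± 0.20 (software error), that is 49.1% of the wildtype level, and the array labelled Pcgf6_flag minus wildtype was -1.45 ± 0.20, or 36.7% of it. Between the array labelled Pcgf6_flag and Pcgf6KO the difference was -0.42 ± 0.20.

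The low Pcgf6 signal would go against the third label only if this probe reads the introduced sequence. The array with that label is called the array labelled Pcgf6_flag throughout. Nothing in the labels places the probe with respect to the Cas9 edit or the lentiviral copy, so its level checks neither label. Every direction that involves that array rests on the label. The local background of the Pcgf6 spot was marked as uneven in Pcgf6KO and in wildtype, as it was for 13.8% and 13.5% of non-control spots there. That background had a median of 56.0 in Pcgf6KO and 52.0 in wildtype, against median spot signals of 6880 and 12922. Without any background subtraction the Pcgf6KO minus wildtype difference of Pcgf6 was -1.04.

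**Figure D1:**
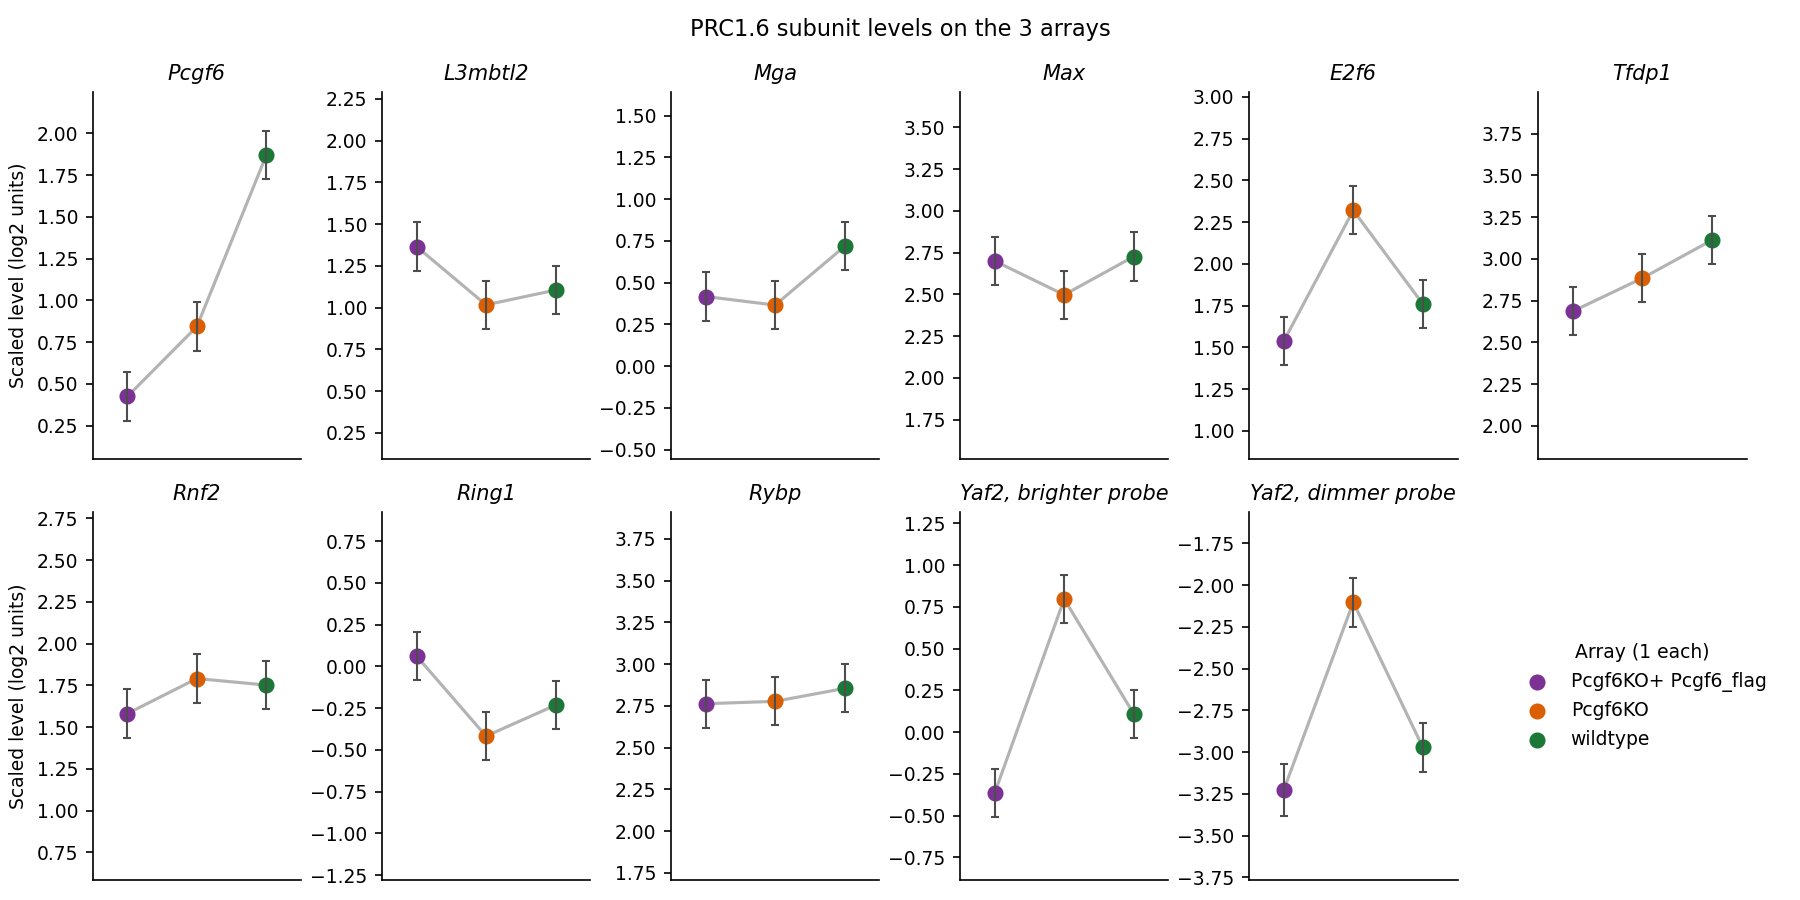
Scaled level (log2 units) of each probe of the PRC1.6 subunits on the array labelled Pcgf6KO+ Pcgf6_flag, in Pcgf6KO and in wildtype, from left to right. Points are single arrays, bars are the scanner software's error, and all panels span the same range around their own centre. Pcgf6 is highest in wildtype, whereas E2f6 and both Yaf2 probes are highest in Pcgf6KO.

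The DNA-binding subunits were read next. E2f6, an E2F family member that represses and lacks the activation domain of other E2Fs, had a level of 2.32 in Pcgf6KO and 1.76 in wildtype, a difference of 0.56 ± 0.20. On the array labelled Pcgf6_flag its level was 1.54, which was -0.78 ± 0.20 from Pcgf6KO and -0.22 ± 0.20 from wildtype. E2f6 was thus highest in Pcgf6KO, with a signal of 21437 there and 13411 and 13267 on the array labelled Pcgf6_flag and in wildtype. Both larger differences stayed short of 2-fold.

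Tfdp1, the dimerisation partner that E2F proteins need to bind DNA, had levels of 2.69 on the array labelled Pcgf6_flag, 2.88 in Pcgf6KO and 3.11 in wildtype. Its differences were -0.23 for Pcgf6KO minus wildtype, -0.20 for the array labelled Pcgf6_flag minus Pcgf6KO and -0.43 for the array labelled Pcgf6_flag minus wildtype. Only the last exceeded 2 times the software error, and Tfdp1 did not share the high value of E2f6 in Pcgf6KO.

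Mga, the large scaffold that carries both a T-box and a helix-loop-helix domain, had levels of 0.42 on the array labelled Pcgf6_flag, 0.37 in Pcgf6KO and 0.72 in wildtype. Pcgf6KO minus wildtype was -0.35 and the array labelled Pcgf6_flag minus wildtype -0.30, neither beyond 2 times the software error. Max, the helix-loop-helix partner of Mga and of the Myc proteins, had levels of 2.70 on the array labelled Pcgf6_flag, 2.497 in Pcgf6KO and 2.73 in wildtype. Its largest difference, -0.23 for Pcgf6KO minus wildtype, was close to the software error of 0.20.

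L3mbtl2 is a protein with malignant brain tumour repeats that helps to compact chromatin. It had levels of 1.37 on the array labelled Pcgf6_flag, 1.02 in Pcgf6KO and 1.105 in wildtype. Pcgf6KO minus wildtype was -0.09, and the array labelled Pcgf6_flag stood 0.35 above Pcgf6KO and 0.26 above wildtype. Its spot had an uneven local background on the array labelled Pcgf6_flag and in Pcgf6KO.

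With the main processing neither catalytic subunit differed by 1.5-fold in any comparison. Without scaling, Ring1 on the array labelled Pcgf6_flag minus Pcgf6KO was 0.586, just past that cutoff. Rnf2, also called Ring1B, had levels of 1.58 on the array labelled Pcgf6_flag, 1.79 in Pcgf6KO and 1.75 in wildtype, so Pcgf6KO and wildtype differed by 0.04. Ring1, its paralogue, had levels of 0.06, -0.42 and -0.23 on the same arrays. Its difference was -0.19 for Pcgf6KO minus wildtype and 0.48 for the array labelled Pcgf6_flag minus Pcgf6KO, and only the value of 0.48 exceeded 2 times the software error. The 2 paralogues thus had differences of opposite sign in each of the 3 comparisons, which share arrays. Without scaling, Rnf2 on the array labelled Pcgf6_flag minus wildtype turned to 0.07. In Pcgf6KO minus wildtype both paralogues lay within the software error, and Rnf2 was 0.0026 with scaling to the median.

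Rybp and Yaf2 are alternative adaptor subunits of variant PRC1 that bind the RING proteins at the same surface. Rybp had levels of 2.76 on the array labelled Pcgf6_flag, 2.78 in Pcgf6KO and 2.86 in wildtype, and its differences lay between -0.09 and -0.01. Yaf2 on its brighter probe had levels of -0.36, 0.80 and 0.11 on the same arrays. The Pcgf6KO level was 0.69 ± 0.20 above wildtype, or 1.61-fold. The array labelled Pcgf6_flag was -1.16 ± 0.20 from Pcgf6KO, that is 44.7% of its level, and -0.47 ± 0.20 from wildtype.

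The dimmer Yaf2 probe, matched to the same accession NM_024189, had levels of -3.23 on the array labelled Pcgf6_flag, -2.10 in Pcgf6KO and -2.97 in wildtype. It gave 0.87 ± 0.21 for Pcgf6KO minus wildtype, -1.12 ± 0.21 for the array labelled Pcgf6_flag minus Pcgf6KO and -0.25 ± 0.22 for the array labelled Pcgf6_flag minus wildtype. Both probes therefore placed Pcgf6KO highest. They differed from each other by 0.18, 0.04 and 0.22 in the 3 comparisons. For genes with 2 measured probes at or above the median level of all genes, the median gap was 0.13, 0.19 and 0.17. The dimmer Yaf2 probe was not held to that limit of brightness. Of the 2 adaptors, Yaf2 was the member that differed between the arrays and Rybp the member that did not differ beyond the software error.

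**Figure D2:**
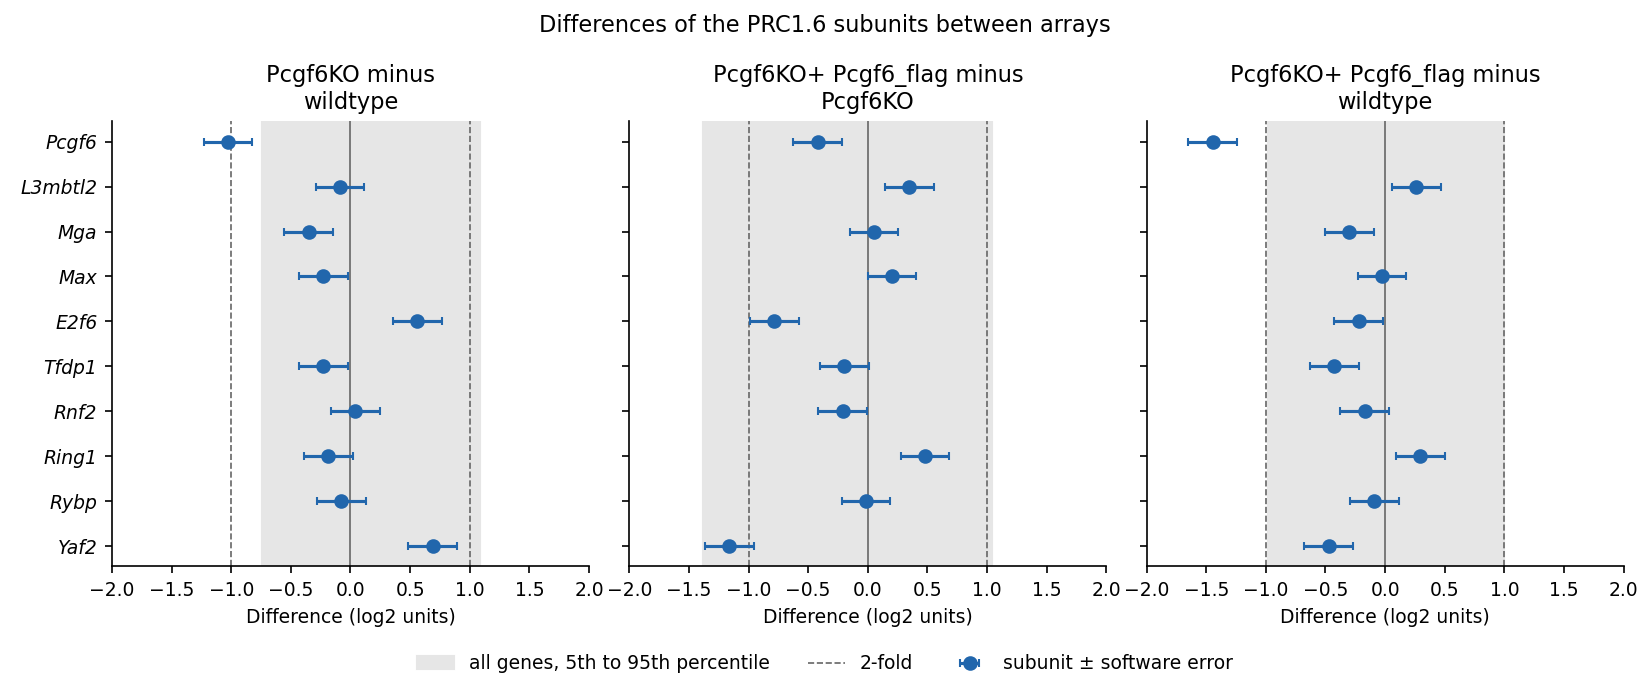
Difference in level (log2 units) of each PRC1.6 subunit for Pcgf6KO minus wildtype, Pcgf6KO+ Pcgf6_flag minus Pcgf6KO and Pcgf6KO+ Pcgf6_flag minus wildtype. Points are the brighter probe of the gene with the software error as bars, grey bands hold the 5th to 95th percentile of all measured genes, and dashed lines mark 2-fold. Pcgf6 lies beyond 2-fold in the first and last comparison, and Yaf2 in the middle one.

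Counted over the complex, 1 of 10 members, Pcgf6, was at least 2-fold lower in Pcgf6KO than in wildtype and 0 were at least 2-fold higher, where 2.81% of all 14997 measured genes were lower and 5.8% higher by that rule. Without scaling Pcgf6 was -0.90 and no member passed. Between the array labelled Pcgf6_flag and Pcgf6KO, 1 of 10 members, Yaf2, was at least 2-fold lower and 0 higher, against 8.37% lower and 5.4% higher of 14241 genes. Between the array labelled Pcgf6_flag and wildtype the member at least 2-fold lower was Pcgf6, 1 of 10, and 0 were higher, against 4.81% lower and 4.9% higher of 14193 genes. A share of 1 in 10 is a single gene, and no weight can be put on its distance from the background. These comparisons share arrays, so they are not independent of each other.

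With 1.5-fold as the rule, 1 member was higher (Yaf2) and 1 lower (Pcgf6) in Pcgf6KO than in wildtype, against 11.7% and 7.53% of all genes. E2f6, with 0.561 there, fell just short of the cutoff of 0.585. By the same rule 2 members, E2f6 and Yaf2, were lower on the array labelled Pcgf6_flag than in Pcgf6KO and 0 higher, against 15% and 12.7% of genes. Set against wildtype, that array had 1 member lower (Pcgf6) and 0 higher, against 10.9% of genes in each direction. Differences beyond 2 times the software error were seen for 3 members in Pcgf6KO minus wildtype, namely Pcgf6, E2f6 and Yaf2, where 27.9% of all genes passed. In the array labelled Pcgf6_flag minus Pcgf6KO they were seen for Pcgf6, E2f6, Ring1 and Yaf2, against 38.4% of genes, and in the array labelled Pcgf6_flag minus wildtype for Pcgf6, Tfdp1 and Yaf2, against 31.3%. Differences were less frequent among brighter genes: of the 8024 at or above the median signal, 13.8% exceeded 2 times their own software error in the first comparison, 22.8% in the second and 16.9% in the last. In these genes 2-fold was passed in either direction by 1.46%, 2.88% and 1.94% in the same order.

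The median difference of the 10 members was -0.14 for Pcgf6KO minus wildtype, against -0.02 for all genes. It was -0.11 against 0.03 for the array labelled Pcgf6_flag minus Pcgf6KO, and -0.20 against -0.02 for the array labelled Pcgf6_flag minus wildtype. Outside Pcgf6 the members lay between -0.35 and 0.69 in the first comparison, between -1.16 and 0.48 in the second and between -0.47 and 0.29 in the last. Pcgf6KO and wildtype were hybridised on the same slide, and the array labelled Pcgf6_flag on another. In both comparisons with that array, slide and group cannot be told apart.

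Markers of the cells in the cultures were read on each array. All 10 stem cell markers were well above background on each array, and their summed signal, in units of the array's 75th percentile, was 137 on the array labelled Pcgf6_flag, 124 in Pcgf6KO and 137 in wildtype. No stem cell marker differed by 2-fold in any comparison, where 2.81% to 8.37% of all genes were lower and 4.9% to 5.8% higher. Fibroblast markers were well above background for 7 of 12 genes on the array labelled Pcgf6_flag, 9 in Pcgf6KO and 11 in wildtype, with summed signals of 3.40, 9.44 and 29.8 in the same units. The fibroblast markers Prrx1 and Postn did not stand well above background in Pcgf6KO or on the array labelled Pcgf6_flag, and Lum was so on no array. In RNA of whole cultures, fewer cells of a type and less RNA per cell cannot be told apart. One field of the labels gives muscle as the source, against embryonic stem cell in the cell type field. Of 8 muscle markers 6 were well above background on every array, Myod1 among them, whereas Myog and Ckm were not on any.

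Pcgf6 had the order of levels seen for the fibroblast markers measured on all 3 arrays. Among 7815 other named genes that were measured on all 3 arrays with at least the median signal (predicted genes left out), the 5 whose centred 3-array profile lay nearest to that of Pcgf6 were Thy1, Aebp1, Spink1, Smpdl3b and Arrdc3. Thy1, a surface glycoprotein used as a fibroblast marker, lay at a Euclidean distance of 0.09 log2 units, with levels of 0.91 on the array labelled Pcgf6_flag, 1.20 in Pcgf6KO and 2.33 in wildtype. Aebp1, which encodes a secreted protein of the extracellular matrix, followed at 0.18, and the other three lay between 0.21 and 0.23. A profile over 3 arrays holds only 2 free differences, so such likeness is a description of these arrays.

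Fibroblast markers measured on both arrays were lower in Pcgf6KO than in wildtype in 9 of 9 cases, with a median of -1.999, and 7 of them by at least 2-fold. Thy1 differed by -1.12, the median of the stem cell markers was -0.15, and Pcgf6 differed by -1.03. Scaled to the stem cell markers in place of the 75th percentile, Pcgf6 differed by -0.92. The part of fibroblast RNA in the Pcgf6 difference was not tested. The 7 fibroblast markers measured on all 3 arrays had a median of -2.64 for the array labelled Pcgf6_flag minus Pcgf6KO. Pcgf6 differed there by -0.42 and Thy1 by -0.30. For the same array minus wildtype the marker median was -3.87, against -1.45 for Pcgf6 and -1.42 for Thy1. The order of Pcgf6 was not particular to fibroblast markers, as Tfdp1 and Bmi1 had it too. The stem cell markers Pou5f1 and Tdgf1 also had it, over small differences, and the other stem cell markers did not. E2f6 and Yaf2 had another order, with Pcgf6KO highest. What fibroblast RNA adds to the level of any member was not tested.

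**Figure D3:**
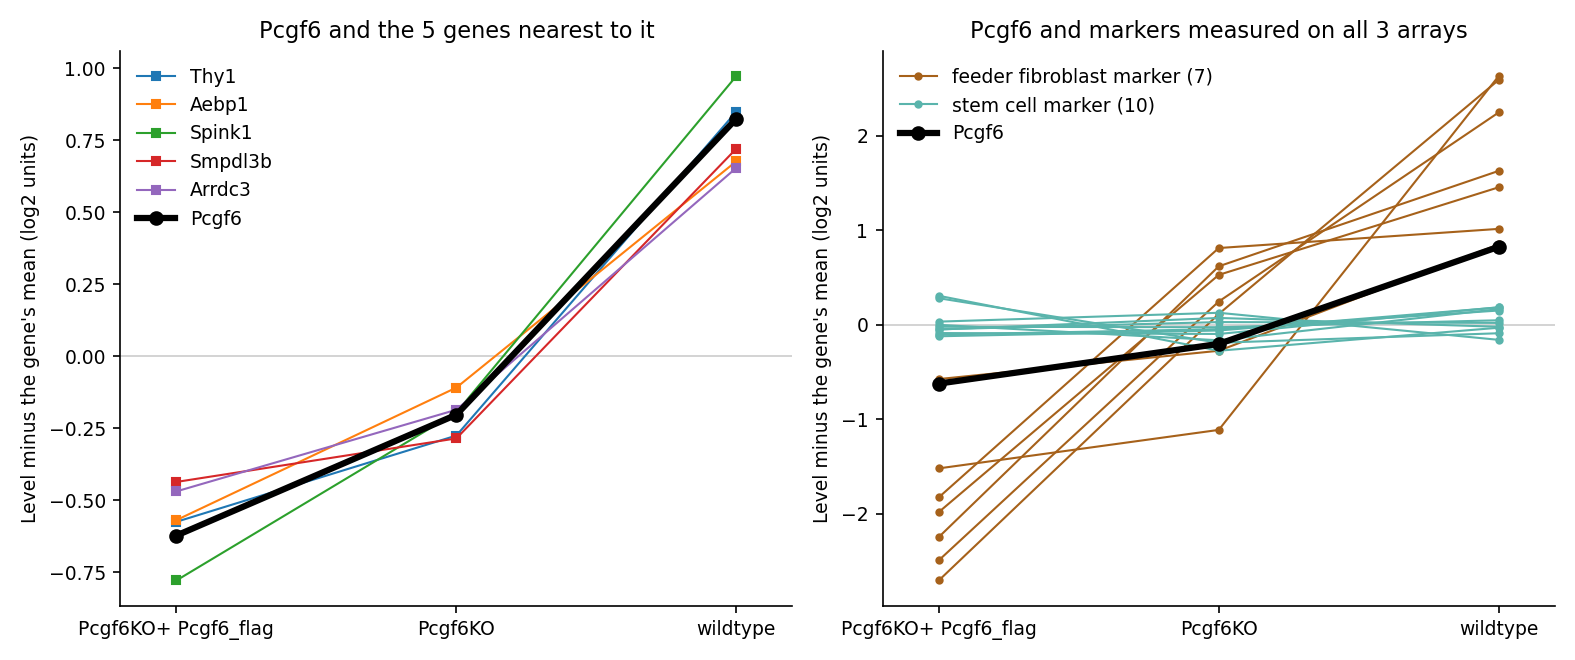
Level minus the gene's own mean over the 3 arrays (log2 units) for Pcgf6 and its 5 nearest genes (left) and for Pcgf6 with the 7 fibroblast markers and 10 stem cell markers measured on all 3 arrays (right). Each line is a gene and each point an array. Pcgf6 runs with Thy1, in the direction of the fibroblast markers but over a smaller range than those other than Thy1. The stem cell markers stay near their mean.

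Proteins that join the complex without defining it were read from a list of 7, all measured. None differed by 2-fold in any comparison, where 2.81% to 8.37% of all genes were lower and 4.9% to 5.8% higher. In a list of 7, a count of 0 is near these shares and is no result about the list. Hdac2, a histone deacetylase, came nearest, with levels of 0.60 on the array labelled Pcgf6_flag, 1.29 in Pcgf6KO and 0.54 in wildtype, that is 0.75 above wildtype in Pcgf6KO. Hdac1, its paralogue, had a difference of -0.01 there. Cbx3, the heterochromatin protein HP1 gamma, differed by 0.12, the WD-repeat protein gene Wdr5 by 0.05 and the H3K9 methyltransferase genes Ehmt1 and Ehmt2 by -0.16 and -0.46. Tfdp2, the other E2F partner, was the lowest with -0.58. The list median was -0.01 in Pcgf6KO minus wildtype, 0.20 in the array labelled Pcgf6_flag minus Pcgf6KO and 0.14 in the array labelled Pcgf6_flag minus wildtype.

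The Pcgf proteins of the other PRC1 forms bind the same RING enzymes, and 5 of 5 were measured. None differed by 2-fold, which in a list of 5 is again near the shares of all genes. Pcgf5, of PRC1.5, stood 0.54 above wildtype in Pcgf6KO and was -0.78 from Pcgf6KO on the array labelled Pcgf6_flag. Bmi1, of canonical PRC1, was -0.78 from wildtype on the array labelled Pcgf6_flag and -0.61 from it in Pcgf6KO. Pcgf1 differed by -0.35, Pcgf2 by 0.04 and Pcgf3 by 0.21 in Pcgf6KO minus wildtype. Of 17 further PRC1 genes on the array, 16 were measured in Pcgf6KO and wildtype and none of these differed by 2-fold, with a median of -0.03. Of all genes 2.81% were lower and 5.8% higher there. Cbx8, a dim chromodomain subunit gene, had signals of 98.7 on the array labelled Pcgf6_flag, 134 in Pcgf6KO and 32.9 in wildtype. It passed as well above background in Pcgf6KO only. The dimmest passing probe read 103 on the array labelled Pcgf6_flag, 53.4 in Pcgf6KO and 52.7 in wildtype. The call in Pcgf6KO only thus rests partly on these limits. Cbx8 was at least 2.33-fold higher in Pcgf6KO than in wildtype, but the bound against the array labelled Pcgf6_flag was only 1.40-fold.

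The germline targets listed for the complex had larger differences in Pcgf6KO minus wildtype than its subunits. They were listed from knowledge of E2f6, Mga and Pcgf6 targets, with earlier results of these data known. Their counts and medians, here and below, are therefore a description and no test of silencing. Of the 17 germline targets, all measured, 8 were at least 2-fold higher in Pcgf6KO than in wildtype and 0 lower, where 5.8% of all genes were higher. Their median difference was 0.997 against -0.02 for all genes. Tdrkh, of the piRNA pathway, had a signal of 6253 in Pcgf6KO and 390 in wildtype, a difference of 3.87. Tex101, a surface protein of germ cells, differed by 2.87 and the testis tubulin gene Tuba3b by 2.26. The lowest were Stag3 with -0.54, a meiotic cohesin gene, Hormad1 with -0.29 and Zcwpw1 with 0.44. Both genes of the printed promoters were higher, Mael by 2.19 and Slc25a31 by 2.03.

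On the array labelled Pcgf6_flag 7 of the 17 targets were at least 2-fold lower than in Pcgf6KO and 1, Stag3 with 1.37, was higher, against 8.37% and 5.4% of all genes. The list median was -0.74. Tdrkh differed by -3.82, Mael by -2.55 and Tex101 by -2.51. Set against wildtype, the array labelled Pcgf6_flag had 1 target at least 2-fold higher, Tuba3b with 2.195, and 0 lower, with a list median of 0.20. Tuba3a and Tuba3b are near-identical paralogues, so their probes may share transcripts. Pcgf6 itself had its lowest signal on that array. Tuba3b differed from Pcgf6KO by -0.07 there and Tuba3a by -0.05.

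**Figure D4:**
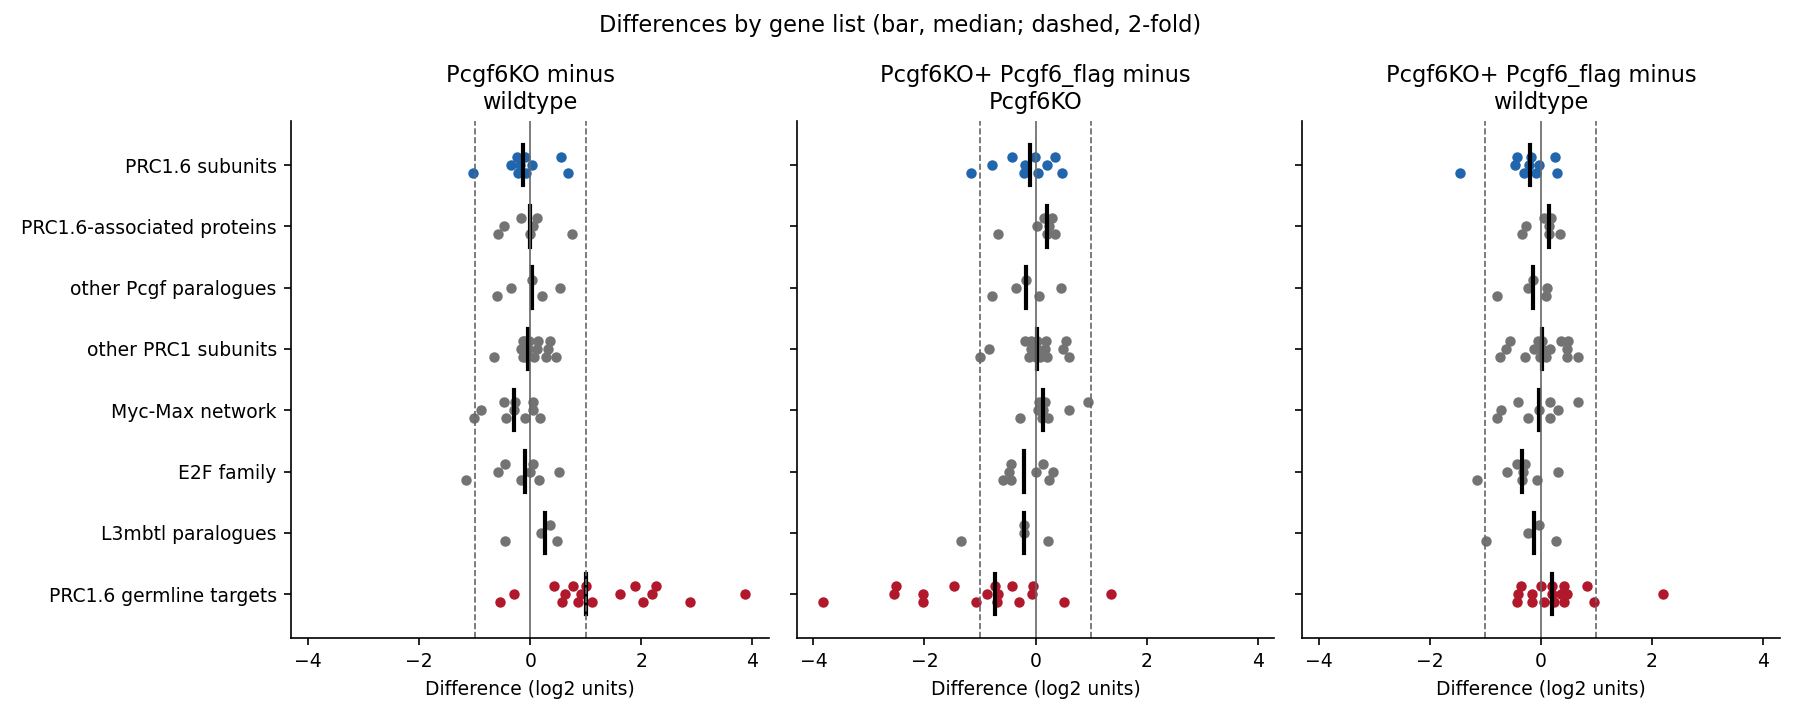
Difference in level (log2 units) of every measured gene of 8 lists for Pcgf6KO minus wildtype, Pcgf6KO+ Pcgf6_flag minus Pcgf6KO and Pcgf6KO+ Pcgf6_flag minus wildtype. Each point is a gene, bars are list medians and dashed lines mark 2-fold. The germline targets extend to 3.87 and -3.82 in the first and middle comparison, whereas the PRC1.6 subunits stay between -1.45 and 0.69.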

How the data were processed

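Cy3-labelled RNA was read on 1-colour Agilent mouse arrays. Per the file headers, the deposited intensity of each spot is linear and comes from Agilent Feature Extraction 11.5.1.1, whereas version 10.7 stands in the submitters' processing notes. The flags of 0 or 1 per spot and the processed signal, background-subtracted by the software, were used as deposited, and the other spot columns were used in checks. The deposited value table equalled the processed signal for 55249 of 55249 single-spot probes on each array (relative tolerance 1e-06), so it is linear, unscaled and uncentred. Its medians were 316 for the array labelled Pcgf6_flag, 276 for Pcgf6KO and 245 for wildtype.

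Control spots and spots marked as outliers (192, 158 and 141 in the same order) were left out, 0 spots were saturated, and spots of 1 probe were averaged. Log2 signals were scaled to the array's 75th percentile. Probes well above background made up 60.7%, 66.0% and 65.3%, and the lowest such signals were 103, 53.4 and 52.7. Unversioned accessions were looked up among the RefSeq genes of GRCm38.p6, and 26762 of 55681 probes received a symbol. Because the design carries mm9 annotation, no gene coordinates were used. A gene was read from its brightest measured probe.

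The rule for naming genes took all members, genes past 2-fold or at the ends of each list, the ends of the target and marker lists, and the 5 genes most like Pcgf6. The members, the lists and the rule were chosen with earlier results of these data known. The call rule was run on simulated data, which checks the rule and is no test of the differences between these arrays. The number of arrays limits the precision. Software was Python 3.11.15, numpy 2.4.6, pandas 2.3.3, matplotlib 3.10.9, R 4.3.3 and limma 3.58.1 (normexp, offset 50).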

Additional observations from a re-analysis of the deposited data

How the results depend on the processing

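Each difference of the members was recomputed under 11 alternatives, 3 of them added after the data were examined (no scaling, no background subtraction, scaling to the stem cell markers). Pcgf6 kept its sign in 11 of 11 recomputed differences in each comparison, E2f6 and Yaf2 in Pcgf6KO minus wildtype and in the array labelled Pcgf6_flag minus Pcgf6KO likewise. Some alternatives left Pcgf6 where it was. In Pcgf6KO minus wildtype it was -1.027 with no filter on dim probes and with the mean over probes, as in the main processing. The deposited value table and outlier spots kept both gave -1.029. Counts over the 11 alternatives are thus not counts of independent checks. No difference past 2-fold changed its sign. Of 330 member differences 278 moved by less than the SD of repeated spots and 52 by more. The 278 include differences that an alternative left unchanged.

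The 2-fold call of Pcgf6 in Pcgf6KO minus wildtype is narrow. It was lost, leaving 0 members past 2-fold, with the 75th percentile of probes well above background on all arrays, without scaling (-0.90) and with scaling to the stem cell markers (-0.92). At 1.5-fold, 2 members passed in Pcgf6KO minus wildtype and 2 in the array labelled Pcgf6_flag minus Pcgf6KO. The first count is narrow too: in that comparison E2f6 passed 1.5-fold under 6 of 11 alternatives and Yaf2 under 9 of 11. For the array labelled Pcgf6_flag minus wildtype, Pcgf6 was -1.57 with scaling to the median and -1.21 without scaling. The median of the members there was -0.32 and 0.042 under these settings. In Pcgf6KO minus wildtype it was -0.0052 without scaling and -0.029 with the stem cell markers. Without scaling the median of all genes was itself shifted, to 0.11, 0.13 and 0.22 in the 3 comparisons in the order above. Small member differences changed sign with the scaling or the background treatment: L3mbtl2 and Rybp in Pcgf6KO minus wildtype, Mga, Max and Rybp in the array labelled Pcgf6_flag minus Pcgf6KO, and Max, E2f6, Rnf2 and Rybp in the array labelled Pcgf6_flag minus wildtype did so under at least 1 alternative, and Max in the array labelled Pcgf6_flag minus Pcgf6KO only with normexp and without background subtraction. The cause was not tested. A block for the slide could not be fitted with 1 array on the second slide. No paired analysis was possible because each group holds 1 array and no result comes from a test.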

Other observations

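In Pcgf6KO minus wildtype the Myc-Max network and the E2F family each had 1 gene at least 2-fold lower and 0 higher. Of all genes 2.81% were lower and 5.8% higher by that rule. Of 10 genes of the Myc-Max network measured in Pcgf6KO and wildtype, Mxd3, an antagonist of Myc that pairs with Max, differed in Pcgf6KO minus wildtype by -1.01, and its levels were 0.30 on the array labelled Pcgf6_flag, 0.08 in Pcgf6KO and 1.09 in wildtype. The highest was Mlx with 0.18, and the network median was -0.29. On the array labelled Pcgf6_flag 0 of 9 measured genes of the network differed from Pcgf6KO by 2-fold, with Mxd1 at 0.95. Of all genes 8.37% were lower and 5.4% higher there.

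Among 8 E2F family genes, E2f2, an activating E2F, had levels of -1.84 on the array labelled Pcgf6_flag, -1.85 in Pcgf6KO and -0.69 in wildtype. It was -1.16 from wildtype in both comparisons with wildtype, which share that array. By the 2-fold rule 2.81% of all genes were lower in Pcgf6KO than in wildtype, and 4.81% on the array labelled Pcgf6_flag. E2f5, a pocket-protein-bound repressor, was the highest in Pcgf6KO minus wildtype with 0.52. Of the L3mbtl2 relatives, 4 of 6 were measured. L3mbtl3 was -1.34 from Pcgf6KO on the array labelled Pcgf6_flag, with levels of -1.83 there, -0.49 in Pcgf6KO and -0.85 in wildtype. It was 1 of 4, where 8.37% of all genes were at least 2-fold lower. Single genes in lists this short give no result about a family.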
